A study of Homo sapiens with 6 samples.

Results

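Unconventional myosins are the actin motors that do not build muscle-type filaments. Each heavy chain couples a motor head, which splits ATP, to a neck that binds calmodulin or related light chains and to a tail that binds a membrane, an organelle or an adaptor protein. Class I motors link membranes to actin, class V and class VI motors carry and tether vesicles, class X motors work in filopodia, and class XIX motors sit on mitochondria. RhoC is a small GTPase that controls actin assembly and the conventional myosin II of stress fibres.

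The 9 genes described here are MYO1C, MYO1D, MYO1E, MYO5A, MYO6, MYO7A, MYO10, MYO18A and MYO19. They were matched by symbol to Ensembl rows, and all 9 were found among the 58233 rows with an Ensembl identifier. They were chosen by their family and on measured values of this same comparison, the levels and the Q63E minus VEC differences, so these are given as a description with no p-value. Testing required an average value of 1 or more across the libraries. In all 13346 genes met this, 8 of the 9 myosins among them, and MYO7A, with an average of 0.535, did not. Values are taken as FPKM, a level per length of transcript and per depth of library, a unit inferred from the files and named in neither their headers nor the labels. Differences are on the log2(value + 1) scale, which understates the change of genes with low values. Another 16 unconventional myosins and 14 conventional heavy chains of class II were listed for comparison.

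The libraries are total RNA from T24, an established cell line from a human transitional cell carcinoma of the bladder. In the Q63E group (n = 3 libraries) the cells stably carried a constitutively active mutant of RhoC, delivered by lentivirus. In the VEC group (n = 3) they carried the vector, delivered in the same way, and both groups were selected with puromycin. The labels do not say whether the cells were clones or pools, nor that the libraries were separate cultures, so each p-value reflects the scatter of these libraries alone and part of that scatter may be technical.

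RHOC, the introduced gene, had values of 1770, 1726 and 1744 in the Q63E libraries, against 232, 218 and 232 in the VEC libraries (log2 difference 2.94, adjusted p = 3.12e-07 in limma). The cells' own gene and the introduced one are a single row. Summed values per library ran from 726929 to 741778 in Q63E and from 746175 to 769026 in VEC. The share held by mitochondrially encoded genes was 5.58% to 6.27% in Q63E and 8.44% to 9.44% in VEC. Of 17 epithelial and urothelial markers 6 reached a mean of 1, among them KRT7, KRT8 and KRT18, which make up nearly all of their sum. Of these 6, 4 were higher in Q63E and 0 lower in limma, against 25.3% of all genes in either direction. They were KRT7, KRT8, KRT18 and PPARG. PPARG had 21.3 ± 0.250 FPKM in Q63E and 13.2 ± 0.619 FPKM in VEC (adjusted p = 0.000586). Its log2 difference was 0.65, beside a median of 0.34 over its 40 nearest tested genes. FOXA1 had 4.28 ± 0.496 FPKM in Q63E and 3.72 ± 0.860 FPKM in VEC and did not pass (adjusted p = 0.469). GATA3, a urothelial regulator, went the other way without passing the test, with 0.363 ± 0.352 FPKM in Q63E and 1.79 ± 1.40 FPKM in VEC (adjusted p = 0.121). GATA3 lay below 1 FPKM in all Q63E libraries and met the required average through its VEC values, mainly 3.37 FPKM in VEC replicate 2. With these Q63E values it had to be lower in Q63E to be tested. The groups overlap, and the 40 nearest tested genes of GATA3 had a median log2 difference of −0.39, with 5 above 0. The 17 summed to 3214 to 3321 in Q63E and 2128 to 2170 in VEC, and the part of this shift in the myosin values was not tested. KRT5, CDH1 and UPK3A were listed at 0 in all 6 libraries, and the uroplakins that mark differentiated urothelium stayed at 1.43 or below. The 10 leukocyte markers summed to 0.25 to 0.5 in Q63E and 0.65 to 1.27 in VEC, with PTPRC listed at 0 in all, and the 8 endothelial markers summed to 0.09 to 0.49 in Q63E and 0.28 to 0.43 in VEC. Muscle markers, which would accompany other myosins, summed to 2.0 to 2.5 in Q63E and 1.14 to 2.55 in VEC over 11 genes. In such bulk libraries fewer cells that express a gene and less RNA per cell cannot be told apart.

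All 9 genes share the phosphate-binding loop of the motor head, which holds the phosphates of ATP. Its codons are shown because they carry the feature common to the family and show how its transcripts differ within it. Each sequence is 24 bases of the coding strand of 1 GENCODE transcript per gene, 5′ to 3′, and capitals mark the 10 bases that are the same in all 9.
MYO1C: GGggagagcGGggcaGGcAAgACc
MYO1D: GGggaaagtGGagctGGtAAaACg
MYO1E: GGtgaaagtGGtgctGGaAAaACa
MYO5A: GGagagtctGGggcaGGaAAaACa
MYO6: GGagaatcaGGagccGGcAAaACa
MYO7A: GGggaatctGGggccGGgAAgACg
MYO10: GGtgaaagtGGggcaGGtAAaACc
MYO18A: GGcagtagtGGcagtGGcAAgACc
MYO19: GGagagagtGGtgctGGaAAgACa

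The 9 loops are 9 different nucleotide sequences, yet 8 of them encode the same 8 residues, and MYO18A differs from these at 2 codons. MYO18A is known for a motor head with little or no ATPase activity. The share of 50-base stretches that also occur in a transcript of another gene was 0.22% for MYO1C, 0.2% for MYO5A and 0 for 6 others. For MYO18A it was 13.56%, all in TIAF1, a gene that lies inside it on the same strand.

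In T24 cells MYO1C and MYO19 supplied most of the summed level of the 9 genes, 64.9% ± 0.871 in Q63E and 69.0% ± 0.686 in VEC (SD, n = 3 each). The order of the levels in Q63E was MYO1C, MYO19, MYO1E, MYO10, MYO1D, MYO18A, MYO5A, MYO6 and MYO7A. In VEC it was MYO1C, MYO19, MYO10, MYO1E, MYO18A, MYO5A, MYO6, MYO1D and MYO7A. In Q63E the neighbouring pairs that overlapped were MYO1E with MYO10 and MYO5A with MYO6. In VEC the overlapping pairs were MYO18A with MYO5A and MYO5A with MYO6. MYO1D held rank 5 in Q63E and rank 8 in VEC, and no other of the 9 moved by more than 1 rank. By mean over the 6 libraries MYO1C stood at percentile 92.2 of the tested genes and MYO6 at percentile 39.7.

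**Figure D1:**
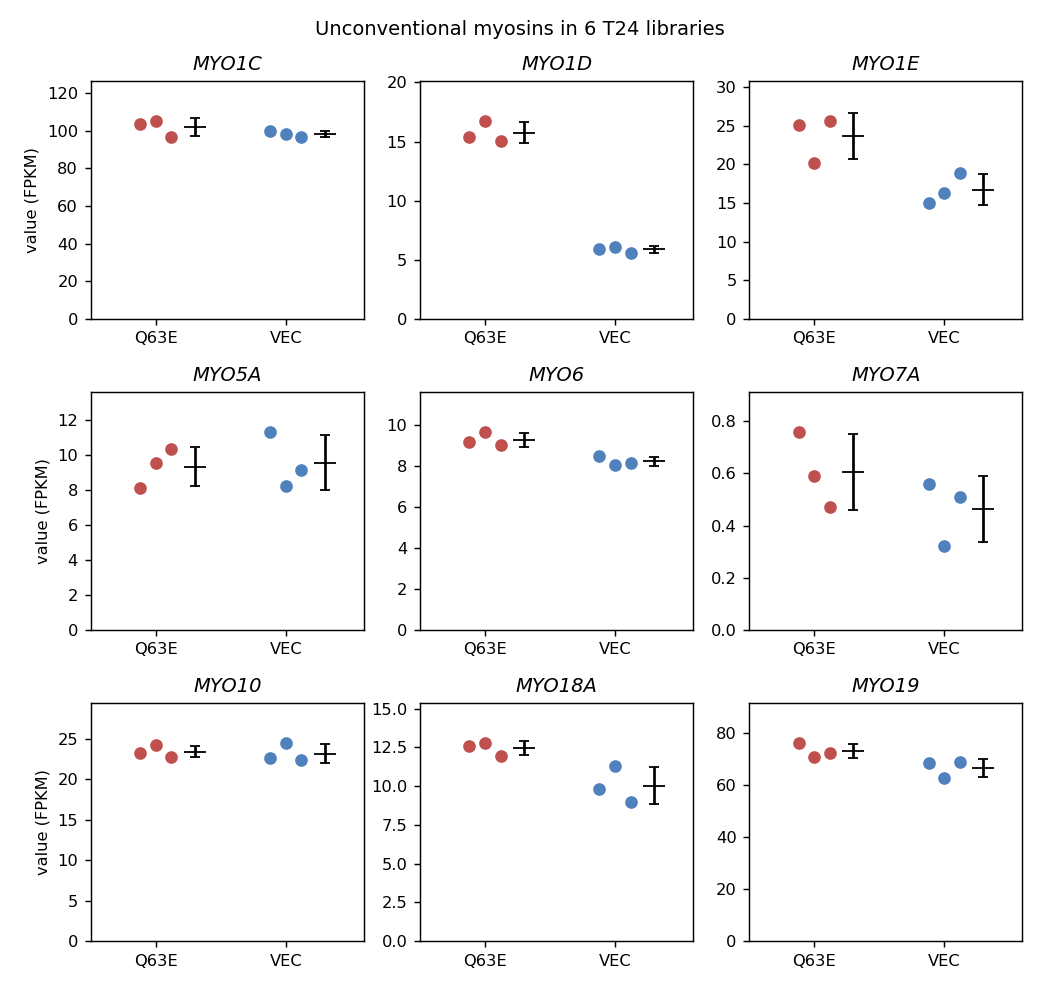
Values (FPKM, y axis from 0) of the 9 unconventional myosins in each library; dots are libraries, Q63E left and VEC right, and bars show the mean and SD (n = 3 each). MYO1D lies at 15.1 to 16.8 in Q63E and at 5.57 to 6.11 in VEC, while the groups overlap for MYO1C, MYO5A, MYO7A and MYO10.

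Since the 9 were chosen on these differences, a count of those past an adjusted p of 0.05 in limma is no test of them. It was 2 of 8, the class I motors MYO1D and MYO1E, both higher in Q63E. Beside this stand 25.3% of all genes in either direction and 11.3% higher, and nothing is read from the count. MYO1D passed in every alternative fit, while MYO1E did not with no filter on low values or in most fits with 1 library left out. These fits reuse the values on which the 9 were chosen, so passing in them is no test either. The groups did not overlap for 5 of the 8 (MYO1D, MYO1E, MYO6, MYO18A and MYO19), each time with Q63E above VEC. Over all genes 43.9% did not overlap, 21.1% in that direction. The median log2 difference of the 8 was 0.14, against −0.002 over all genes tested.

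MYO1D (ENSG00000176658, GRCh38 chromosome 17, 32492522 to 32877177, minus strand) encodes a short-tailed class I motor of endosomal membranes, whose Drosophila relative sets left-right asymmetry. It had values of 15.4, 16.8 and 15.1 FPKM in the Q63E libraries, against 5.90, 6.11 and 5.57 FPKM in the VEC libraries. Every Q63E library lay at more than 2 times the level of every VEC library. The ratio of means was 2.69, and the log2 difference was 1.29 (SE 0.073, 95% interval 1.11 to 1.46). Measured within a library against MYO1C, which removes any scaling between libraries, MYO1D stood at 15.4% ± 0.574 of the MYO1C level in Q63E and 5.95% ± 0.241 in VEC (SD, n = 3 each). Its 40 nearest tested genes had a median log2 difference of 0.14, with 27 above 0, and 1.15 was left after subtraction of that median. Its log2 difference with single libraries left out ran from 1.24 to 1.31. Exons of AC084809.1, on the opposite strand, cover 1.42% of the exonic bases of MYO1D, and their part in its values was not tested.

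The 3 protein-coding genes whose pattern over the 6 libraries was most like that of MYO1D were DSG2 (Pearson r = 0.9995), ANO9 (r = 0.9992) and IGFBP1 (r = 0.9988). DSG2 encodes a desmosomal cadherin and had 69.8, 72.7 and 70.05 FPKM in Q63E, against 44.9, 44.8 and 43.6 FPKM in VEC. IGFBP1, a binding protein of insulin-like growth factors, had 15.2, 17.5 and 14.85 FPKM in Q63E, against 2.04, 1.81 and 1.49 FPKM in VEC. With 6 libraries in 2 groups such likeness is common, and 660 tested protein-coding genes reached an r of 0.95 with MYO1D.

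MYO1E (ENSG00000157483, chromosome 15 from 59132434 to 59372900, minus strand) encodes a long-tailed class I motor with a role in endocytosis and in the actin of podocytes. Its values were 25.1, 20.3 and 25.7 FPKM in the Q63E libraries, against 15.0, 16.3 and 18.9 FPKM in the VEC libraries. The groups are apart by a narrow margin, since the lowest Q63E library stood just above the highest VEC library. The ratio of means was 1.42 and the log2 difference 0.48 (SE 0.118, 95% interval 0.19 to 0.76). With single libraries left out the log2 difference ran from 0.41 to 0.58. The 40 nearest tested genes of MYO1E had a median log2 difference of 0.12, with 30 above 0, and 0.36 was left after subtraction of that median. Exons of 2 genes on the opposite strand, FAM81A and AC092757.2, cover 2.06% of its exonic bases. FAM81A had 24 FPKM in Q63E replicate 3 and 0.30 and 1.08 FPKM in the other Q63E libraries, while AC092757.2 had 22.9 FPKM in VEC replicate 2 and at most 0.77 FPKM in every other library. Their part in the MYO1E values was not tested.

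MYO1C (ENSG00000197879, chromosome 17 from 1464186 to 1492812, minus strand) encodes the class I motor known for delivery of the glucose transporter GLUT4 to the cell surface. It was the most abundant of the 9, with 104, 105 and 96.7 FPKM in Q63E, against 100, 98.2 and 96.9 FPKM in VEC. These values overlap, and the log2 difference was 0.05 (95% interval −0.05 to 0.15). Among the 3 class I members, the groups thus overlapped for the most abundant motor and did not overlap for the other 2.

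The promoters of MYO1D and MYO1E are shown for comparison. They were picked by the count above, from which nothing is read. Each is the 250 bases before the start of transcription from RefSeq (GRCh38.p14), on the gene's own strand. Capitals mark matches on either strand to the GC box (GGGCGG), the CCAAT box, the TATA box (TATAAA), the AP-1 motif (TGANTCA), the TEAD motif (GGAATG), the E-box (CACGTG) or the CArG box of serum response factor. Overlapping matches were counted separately. MYO1D lies at chr17:32877125-32877374 and MYO1E at chr15:59372872-59373121, both on the minus strand.
MYO1D: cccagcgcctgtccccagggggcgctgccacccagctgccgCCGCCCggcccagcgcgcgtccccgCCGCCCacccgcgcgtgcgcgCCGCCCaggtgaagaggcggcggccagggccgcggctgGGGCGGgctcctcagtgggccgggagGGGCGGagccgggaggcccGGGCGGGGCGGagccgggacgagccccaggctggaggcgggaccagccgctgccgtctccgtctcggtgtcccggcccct
MYO1E: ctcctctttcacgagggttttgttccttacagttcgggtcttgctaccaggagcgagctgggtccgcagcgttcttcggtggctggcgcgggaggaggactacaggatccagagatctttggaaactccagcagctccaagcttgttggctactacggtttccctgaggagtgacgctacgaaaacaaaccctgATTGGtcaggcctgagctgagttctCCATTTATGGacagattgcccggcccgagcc

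The 2 windows have little in common. MYO1D has 83.2% G and C and 7 GC boxes, and MYO1E has 56.0% G and C, no GC box, 1 CCAAT box and 1 CArG box, which ends 21 bases before the start. Serum response factor and its MRTF cofactors bind CArG boxes. RefSeq windows were found for 8 of the 9 members, 13 windows in all since some genes have several starts. A GC box occurred in 11 of these 13 windows (42.6% of all 35116 windows) and a CArG box in 1 of 13 (1.2% of all). No member window held a TATA box (10.7% of all) or a TEAD motif (11.9% of all), and the AP-1 motif occurred in 1 window of MYO1C (6.6% of all). A CCAAT box occurred in 3 member windows (32.0% of all) and an E-box in 2 (6.3% of all). A match describes the letters of a window and not a bound site.

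MYO5A (ENSG00000197535, chromosome 15 from 52307283 to 52529050, minus strand) is the vesicle motor known for carrying melanosomes and secretory vesicles. Its values of 8.11, 9.51 and 10.3 FPKM in Q63E lay among those of 11.3, 8.23 and 9.10 FPKM in VEC. The log2 difference was −0.03 (95% interval −0.35 to 0.29), the lowest of the tested members. It changed sign with single libraries left out, from −0.12 to 0.09. The tested protein-coding genes most like it over the 6 libraries were MRPL21 (r = 0.9904), PRTG (r = 0.9784) and FBXO8 (r = 0.9782), with log2 differences of −0.0286, −0.0009 and −0.0304. Among tested protein-coding genes 19 reached an r of 0.95 with MYO5A over these 6 libraries, and shared control was not tested.

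MYO6 (ENSG00000196586, chromosome 6 from 75749192 to 75919537, plus strand) is the motor that moves toward the pointed end of actin filaments and serves endocytosis and autophagy. It had 9.17, 9.65 and 8.99 FPKM in Q63E, against 8.46, 8.02 and 8.14 FPKM in VEC. The groups are separate but close, with a log2 difference of 0.16 (95% interval −0.002 to 0.32). MYO7A (ENSG00000137474, chromosome 11 from 77128264 to 77215241, plus strand), the motor of inner ear hair cells that is mutated in Usher syndrome, was near the bottom of the scale, with 0.76, 0.59 and 0.47 FPKM in Q63E and 0.56, 0.32 and 0.51 FPKM in VEC. These values overlap.

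MYO10 (ENSG00000145555, chromosome 5 from 16661914 to 16936276, minus strand), which carries integrins to the tips of filopodia, had 23.3, 24.2 and 22.8 FPKM in Q63E, against 22.6, 24.5 and 22.5 FPKM in VEC. The groups overlap almost entirely, and the 95% interval of the log2 difference of 0.02 ran from −0.12 to 0.15.

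MYO18A (ENSG00000196535, chromosome 17 from 29071124 to 29180412, minus strand) joins the Golgi protein GOLPH3 to actin. It had 12.6, 12.8 and 11.96 FPKM in Q63E, against 9.84, 11.3 and 8.97 FPKM in VEC. All Q63E libraries lay above all VEC libraries, with a ratio of means of 1.24 and a log2 difference of 0.29 (SE 0.090). The log2 difference ran from 0.22 to 0.37 with single libraries left out. It was 0.33 with values rescaled to a common sum, and 0.29 when mitochondrially encoded genes were left out of that sum. TIAF1, which shares 9.26% of its exonic bases, had 0.66, 0.90 and 0.81 FPKM in Q63E and 0.59, 0.55 and 0.36 FPKM in VEC.

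MYO19 (ENSG00000278259, chromosome 17 from 36495633 to 36543435, minus strand) is the motor of the outer mitochondrial membrane. Its values were 76.1, 70.6 and 72.3 FPKM in Q63E, against 68.4, 62.6 and 68.7 FPKM in VEC, a ratio of 1.10 with groups that do not overlap. The log2 difference of 0.13 (95% interval 0.006 to 0.26) was smaller than the median of 0.21 over its 40 nearest tested genes, of which 36 lay above 0. MYO1D, MYO18A and MYO19 all lie between positions 29071124 and 36543435 of chromosome 17, and the neighbours of MYO18A had a median of 0.14 with 31 of 40 above 0. On the opposite strand ZNHIT3 and PIGW overlap 12.44% of the exonic bases of MYO19. ZNHIT3 rose to 37.0 ± 3.14 FPKM in Q63E, against 30.5 ± 1.45 FPKM in VEC (SD, n = 3 each, adjusted p = 0.0382 in limma). PIGW had 9.40 ± 0.756 FPKM in Q63E and 7.74 ± 0.501 FPKM in VEC and did not pass (adjusted p = 0.0777 in limma). Counting by strand is not given in the sources used here, so shared reads cannot be told apart.

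**Figure D2:**
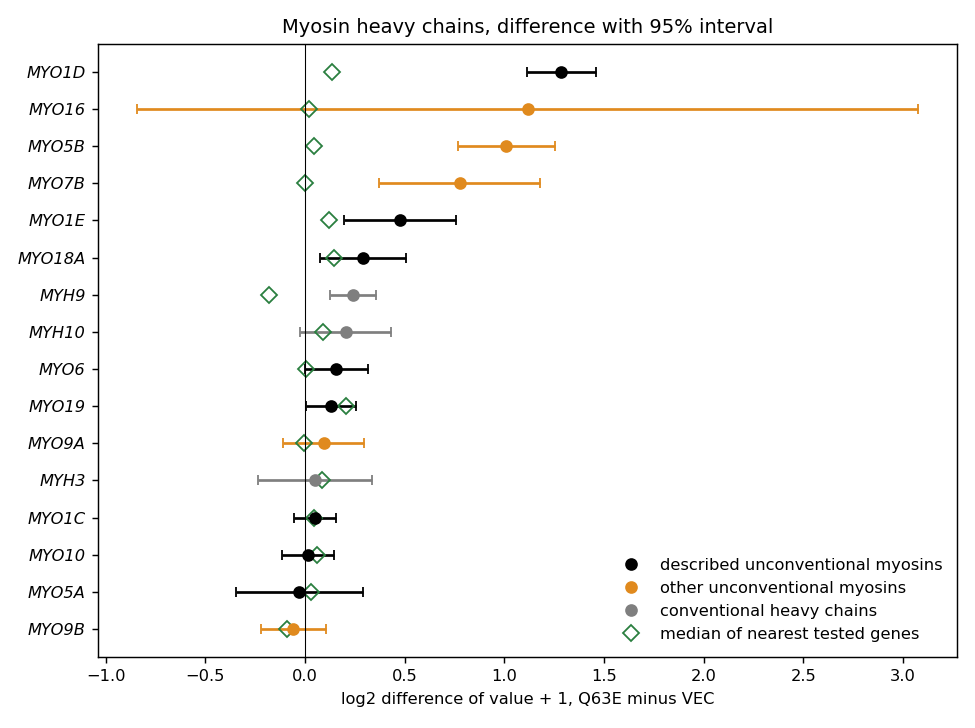
Log2 difference of value + 1 between Q63E and VEC (x axis) for 16 of the 17 tested myosin heavy chains, with 95% intervals from limma and, as open diamonds, the median of the 40 nearest tested genes (35 for MYO1C). MYO1D at 1.29 and MYO5B at 1.01 stand far from their neighbours, MYO16 at 1.12 has a wide interval that spans 0, and MYO19 lies below its neighbours' 0.21. The intervals are not adjusted for the number of genes. For the described myosins, which were chosen on these differences, they are no test.

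The summed level of the 9 genes was 274, 270 and 264 FPKM in the Q63E libraries, against 242, 235 and 239 FPKM in the VEC libraries, a ratio of 1.13. With all 25 unconventional myosins the sums were 406, 410 and 394 FPKM in Q63E, against 385, 376 and 373 FPKM in VEC. The share of MYO1D in the sum of the 9 was 5.84% ± 0.328 in Q63E and 2.45% ± 0.134 in VEC, and that of MYO1E was 8.79% ± 1.15 in Q63E and 6.995% ± 0.867 in VEC (SD, n = 3 each).

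**Figure D3:**
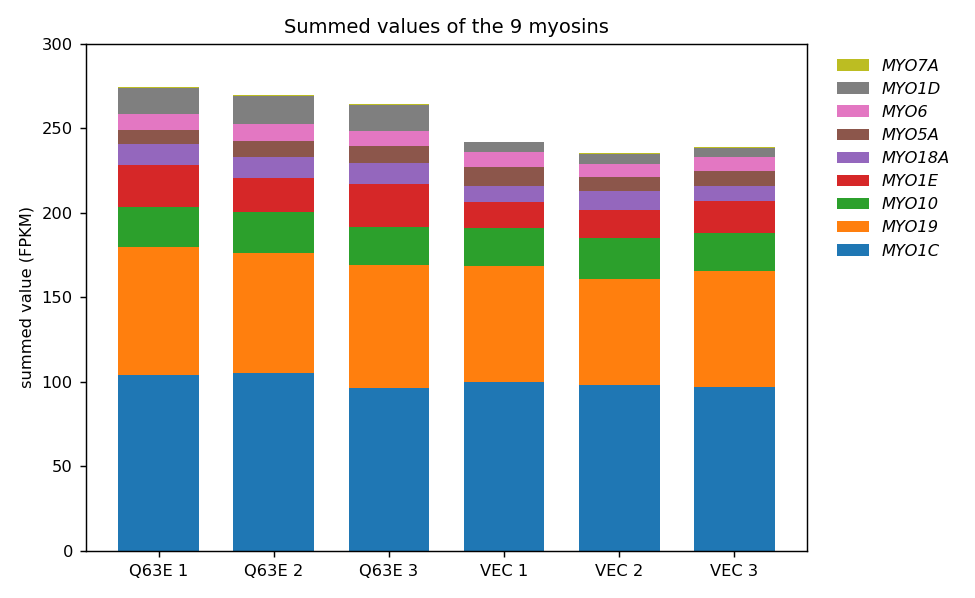
Summed value (FPKM, y axis from 0) of the 9 unconventional myosins in each library, stacked by gene. The Q63E bars reach 264 to 274 and the VEC bars 235 to 242, and MYO1C and MYO19 fill most of each.

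Outside the 9, 9 of the other 30 listed heavy chains were tested, of which 3 were higher and 1 lower in Q63E in limma, against 25.3% of all genes in either direction. MYO5B, the class V motor of apical recycling endosomes, rose to 8.90 ± 0.441 FPKM in Q63E, against 3.93 ± 0.515 FPKM in VEC (log2 difference 1.01, adjusted p = 0.00104). MYO7B, the class VII motor of the intestinal brush border, rose to 1.81 ± 0.300 FPKM in Q63E, against 0.637 ± 0.142 FPKM in VEC (log2 difference 0.78, adjusted p = 0.0182). MYO5B passed in all 13 alternatives. The call for MYO7B was lost without Q63E replicate 3 (adjusted p = 0.0527, in a range from 0.00633 to 0.0616 over its alternatives). MYO7B lay below 1 FPKM in all VEC libraries and met the requirement of an average of 1 through its Q63E values alone, so with these VEC values it had to differ in that direction to be tested.

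MYH9, the heavy chain of non-muscle myosin IIA, rose to 508.5 ± 17.4 FPKM in Q63E, against 430 ± 23.2 FPKM in VEC (log2 difference 0.24, adjusted p = 0.0141). Its 40 neighbours on chromosome 22 had a median of −0.18, opposite in direction. Without VEC replicate 3 or Q63E replicate 1 it did not pass (adjusted p = 0.0552 and 0.0512; lowest over its alternatives 0.0106). MYH10, its IIB relative, had 56.9 ± 7.32 FPKM in Q63E and 49.0 ± 2.31 FPKM in VEC and did not pass (adjusted p = 0.166). MYO9A and MYO9B, class IX motors with a GTPase-activating tail, did not pass either: MYO9B had 39.2 ± 1.73 FPKM in Q63E and 40.9 ± 3.29 FPKM in VEC, and MYO9A had 6.99 ± 0.522 FPKM in Q63E and 6.47 ± 0.316 FPKM in VEC. MYH3, an embryonic muscle form, had 4.13 ± 0.631 FPKM in Q63E and 3.93 ± 0.165 FPKM in VEC (adjusted p = 0.790). MYO16 varied within both groups, with 4.16, 5.64 and 1.10 FPKM in Q63E and 5.68, 0.02 and 0.03 FPKM in VEC.

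Light chains and calmodulins, which occupy the necks of these motors, moved both ways: of 10 tested 3 rose and 2 fell in limma, with a median log2 difference of 0.10. CALM3, a calmodulin gene, fell to 133 ± 1.70 FPKM in Q63E, against 160 ± 3.71 FPKM in VEC (adjusted p = 0.00241). CALM2 had 495 ± 19.8 FPKM in Q63E and 477 ± 30.9 FPKM in VEC (adjusted p = 0.531). Among regulatory light chains of myosin II, MYL9 rose to 65.2 ± 6.43 FPKM in Q63E, against 50.45 ± 2.17 FPKM in VEC. MYL12A fell to 432 ± 22.9 FPKM in Q63E, against 534 ± 38.9 FPKM in VEC (adjusted p = 0.016 for MYL9 and 0.0164 for MYL12A). CALML4, the light chain of MYO7B, rose to 5.54 ± 0.622 FPKM in Q63E, against 3.54 ± 0.688 FPKM in VEC (adjusted p = 0.0382). MYL12B rose to 380.3 ± 21.1 FPKM in Q63E, against 331 ± 19.4 FPKM in VEC (adjusted p = 0.0495). The number that rose was 0 without VEC replicate 3 and 1 without VEC replicate 2, Q63E replicate 2 or Q63E replicate 3. Of the 5 calls that of CALM3 held in all 13 alternatives. MYL9 was lost without VEC replicate 3 (adjusted p = 0.058, in a range from 0.0111 over its alternatives). MYL12A was lost without Q63E replicate 1 (adjusted p = 0.0517, in a range from 0.00556 to 0.067). The calls of CALML4 and MYL12B held in 5 of 12 and 6 of 13 alternatives, with adjusted p up to 0.113 and 0.137.

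The partners of these motors showed no common direction. Of 96 tested genes in 7 partner lists and a list of folding factors and tropomyosins, 17 were higher and 12 lower in Q63E (30.2%, against 25.3% of all genes), with a median log2 difference of 0.02. The number lower was 6 without VEC replicate 3 or Q63E replicate 3, and 7 without VEC replicate 2 or Q63E replicate 1. In every alternative in which they were tested 11 rises and 5 falls held. That is 13 alternatives for each but CIB2, which was not tested with a mean of at least 5 and held in the other 12. The genes given next with values are among these 16 unless stated. By list the share called ran from 11.1% (class XIX, 9 tested) to 66.7% (class VII, 3 tested), beside the 25.3% of all genes. Class I partners had 3 risen and 2 fallen of 15. The falls were DNM2, a dynamin of endocytosis, and BAZ1B, a chromatin remodelling subunit, by 0.19 and 0.15 on the log2 scale (adjusted p = 0.0218 and 0.0387). Neither was stable: with single libraries left out 1 fell without VEC replicate 1 or Q63E replicate 2, and 0 fell when any of the other 4 was left out. DEK and SF3B1, found with nuclear MYO1C in a chromatin complex, rose by 0.23 and 0.24 on the log2 scale (adjusted p = 0.0114 and 0.00827). Class V partners had 2 risen and 0 fallen of 17. RAB10, a vesicle GTPase, rose to 68.7 ± 4.90 FPKM in Q63E, against 54.9 ± 3.12 FPKM in VEC, and DYNLL2, the light chain bound to the MYO5A tail, to 11.6 ± 0.218 FPKM in Q63E, against 8.83 ± 0.215 FPKM in VEC. The log2 difference of DYNLL2 was 0.36, beside a median of 0.23 over its 40 neighbours, of which 36 lay above 0.

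Class VI partners had 3 risen and 4 fallen of 15, and with single libraries left out 2 to 3 rose and 2 to 3 fell. TOM1L1, an endosomal adaptor, rose to 73.1 ± 5.81 FPKM in Q63E, against 53.4 ± 3.59 FPKM in VEC (adjusted p = 0.00723). CLTC, the clathrin heavy chain, rose to 134 ± 3.83 FPKM in Q63E, against 112 ± 1.40 FPKM in VEC (adjusted p = 0.00319). Its log2 difference was 0.26, beside a median of 0.17 over its 40 neighbours, of which 36 lay above 0, and for TOM1L1 these values were 0.45 and 0.16. OPTN (optineurin, an autophagy receptor) fell to 30.3 ± 0.411 FPKM in Q63E, against 39.65 ± 3.76 FPKM in VEC. Its log2 difference of −0.37 was no larger than the median of −0.39 of its 40 neighbours on chromosome 10. AP2M1, a subunit of the clathrin adaptor, fell by 0.23 on the log2 scale (adjusted p = 0.00241), beside a neighbour median of −0.15. DAB2, another clathrin adaptor, and GIPC1 are the other falls, and TAX1BP1 the other rise, none of them called in all 13 alternatives.

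Class VII partners had few expressed members, with 1 risen and 1 fallen of 3 tested among 11 listed. CIB2, a calcium-binding partner of MYO7A in hair cells, rose to 4.49 ± 0.655 FPKM in Q63E, against 2.24 ± 0.331 FPKM in VEC (adjusted p = 0.01). ARHGAP21, a GTPase-activating protein, fell to 20.5 ± 1.78 FPKM in Q63E, against 40.7 ± 3.50 FPKM in VEC (adjusted p = 0.00068), with a neighbour median of −0.52 against its log2 difference of −0.96. Class X partners and filopodial genes had 5 risen and 2 fallen of 20. With single libraries left out 2 to 5 rose, 3 or fewer in each fit but that without VEC replicate 2, and 1 to 2 fell. BAIAP2L1, which bends membranes into protrusions, rose to 23.4 ± 0.907 FPKM in Q63E, against 15.6 ± 0.836 FPKM in VEC (adjusted p = 0.00142), and the formin FMNL2 rose by 0.28 on the log2 scale (adjusted p = 0.0122). The falls were CDC42, a GTPase that induces filopodia, at 103.5 ± 0.766 FPKM in Q63E, against 115.7 ± 4.38 FPKM in VEC (adjusted p = 0.026), and ITGB1. ITGB1, the integrin subunit carried by MYO10, fell to 344 ± 4.40 FPKM in Q63E, against 381 ± 5.86 FPKM in VEC (adjusted p = 0.0136), and is named after its values were seen. Its log2 difference of −0.15 was smaller in size than the median of −0.33 of its neighbours. CDC42 held in 7 and ITGB1 in 11 of 13 alternatives.

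Class XVIII partners had 0 risen and 2 fallen of 10. GOLPH3, the Golgi receptor of MYO18A, fell to 32.85 ± 0.986 FPKM in Q63E, against 42.2 ± 1.96 FPKM in VEC (log2 difference −0.35, adjusted p = 0.00398), while MYO18A itself was at a ratio of 1.24. Class XIX partners had 1 risen of 9 and 0 fallen, and that gene, TRAK1, did not keep its call in 8 of 13 alternatives. RHOT1 and RHOT2, the mitochondrial GTPases that hold MYO19 on the outer membrane, did not pass (adjusted p = 0.148 and 0.696), and RHOT1 is named for that role after its values were seen. Among folding factors and tropomyosins 2 rose and 1 fell of 7: TPM1 rose to 132 ± 7.49 FPKM in Q63E, against 80.3 ± 5.70 FPKM in VEC (adjusted p = 0.000748). TPM2 fell to 437 ± 4.53 FPKM in Q63E, against 501 ± 7.53 FPKM in VEC (adjusted p = 0.00423), by less than the median of −0.33 of its neighbours on chromosome 9. Tropomyosins coat actin filaments and set which myosins can bind them. The chaperone HSP90AA1, which folds motor heads, rose by 0.38 on the log2 scale (adjusted p = 0.000895).

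**Figure D4:**
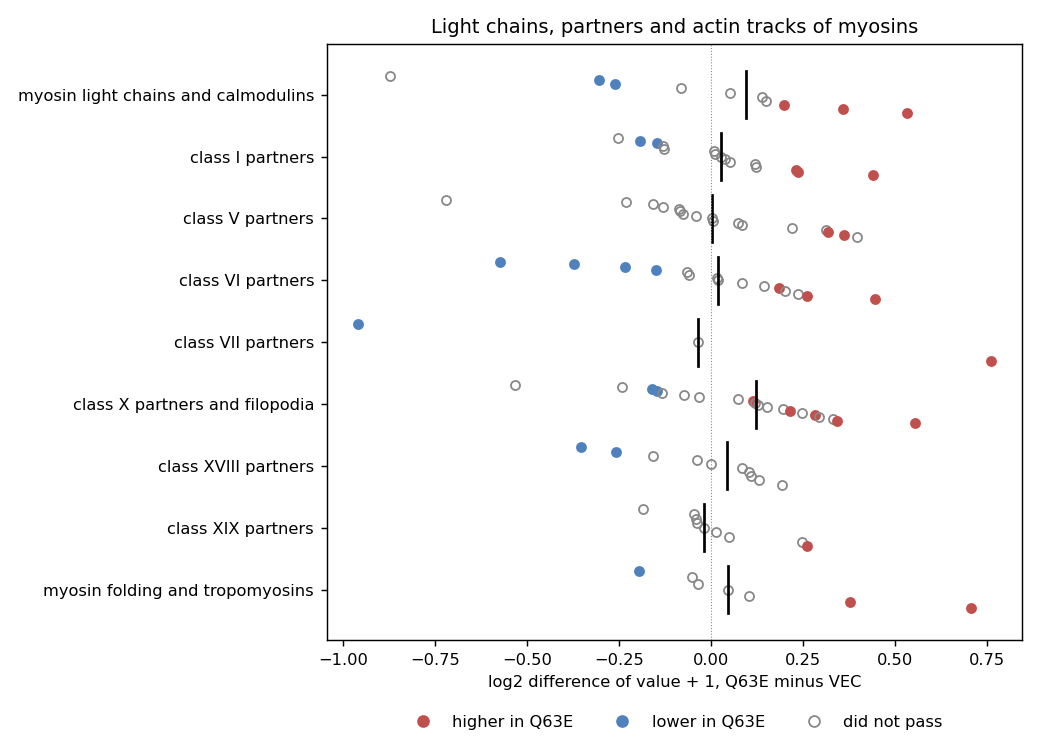
Log2 difference of value + 1 between Q63E and VEC (x axis) for tested light chains, calmodulins, partners, folding factors and tropomyosins, 1 dot per gene and 1 row per list; filled dots passed in limma and bars mark the list's median. The lists' medians run from −0.035 (class VII) to 0.124 (class X).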

How the data were processed

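Total RNA of 6 libraries of T24 cells was profiled, 3 carrying RhoC Q63E and 3 the vector. The authors deposited 1 table of values per library, taken here as FPKM from the values, since neither headers nor labels name the unit. Reads were aligned to GRCh38.p10 with HISAT2 2.1.0, and Bowtie2 is also listed, per the submitters' processing notes; for the counter, annotation and strand setting nothing is given in the sources used here. Depth is therefore unknown, no counting interval is given, and a value of 0 means listed at 0. Genes with a mean of at least 1 were fitted on log2(value + 1) with limma 3.58.1 (R 4.3.3, eBayes with trend, two-sided, group alone), and p-values were Benjamini-Hochberg adjusted over all 13346 genes, with a threshold of 0.05. All adjusted p-values are from this fit. The members and lists were chosen with earlier results of these data known. Neighbours are the 40 nearest other tested genes, 20 on each side where present. Positions and loop codons come from GENCODE 29, promoters from RefSeq. Named were all 9 members, RHOC, other tested heavy chains and light chains, per partner list up to 5 called genes with the largest differences (or the 2 with the highest mean where fewer than 2 were called), and the 3 genes most like the members with the largest rise and fall. Some genes that this rule names are not reported here. Genes that overlap members and RHOT1 were added after their values were seen. The fit was tested on simulated data before use, with 50 genes changed at each fold. It recovered 16% at a fold of 1.25, 38% at 1.5, 66% at 2 and 94% at 4, and 3 of its 110 calls were unchanged genes. A gene that did not pass may therefore still differ. Alternatives were another pseudocount, other filters, rescaling, a replicate block, eBayes without trend, leaving out each library and, for members, subtracting the neighbour median. Protein sequence features had been planned and were not used here, and coding bases were used in their place.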

Additional observations from a re-analysis of the deposited data

How the results depend on the processing

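No called gene outside the members changed direction in any alternative: of 1491 values of 116 other genes 1358 kept their side of the threshold, 112 no longer passed and 21 newly passed. Same-numbered libraries did not deviate together (correlations −0.042, −0.009 and −0.025), and the main fit did not pair them. The labels do not say whether same-numbered libraries were prepared together. With the replicate block, 942 genes were higher in Q63E in place of 1510, 0 light chains were higher and 1 lower, and 5 partners were lower. Without trend in eBayes 7 partners were lower. With no filter on low values 1 light chain and 1 member, MYO1D, were higher. Rescaling to a common sum called MYO18A beside MYO1D and MYO1E. With a pseudocount of 0.1 the log2 difference was 1.41 for MYO1D and 0.33 for MYO7A. With the neighbour median subtracted it was 1.15 for MYO1D, −0.046 for MYO10, 0.15 for MYO18A and −0.076 for MYO19. With single libraries left out, 992 to 1138 genes were higher (fewest without Q63E replicate 3, and 1000 without Q63E replicate 1), 0 to 4 light chains were higher (none without VEC replicate 3) and 1 to 3 lower (1 without Q63E replicate 1). Of partners 6 to 9 were lower (6 without VEC replicate 3 or Q63E replicate 3, 7 without VEC replicate 2 or Q63E replicate 1), and of members 1 to 2 were higher. MYO1D was called in each of these fits. MYO1E was not called without VEC replicate 1, VEC replicate 2, Q63E replicate 1 or Q63E replicate 3. MYO18A was called without VEC replicate 2. None of these calls of members is a test, since the members were chosen on the same values. In these fits the log2 difference ran from 0.22 to 0.37 for MYO18A and from −0.01 to 0.05 for MYO10. The causes were not tested. Rescaling moved the median of all genes by less than 0.1. Depth is unknown, so its part in the precision of low values could not be given.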

Other observations

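MYO15B, an unconventional myosin below the level required for testing, had 0.55, 0.41 and 0.68 FPKM in Q63E. It had 0, 0.12 and 0.01 FPKM in VEC, and these groups do not overlap. Nor do those of MYO1F and MYH15, also below that level, but with Q63E below VEC. MYO1F had 0.05, 0.1 and 0.08 FPKM in Q63E, against 0.15, 0.14 and 0.56 FPKM in VEC. MYH15 had 0.11, 0.14 and 0.1 FPKM in Q63E, against 0.28, 0.19 and 0.27 FPKM in VEC. MYO15B, MYO1F and MYH15 are named here because their groups do not overlap, unlike those of the other listed heavy chains below that level. Over all tested genes 43.9% did not overlap, but that share leaves out genes below the level required for testing. The share among such low genes was not computed, so nothing is read from the separation of these groups. MYO16 had a log2 difference of 1.12 with a standard error of 0.817 (adjusted p = 0.364 in limma). Without VEC replicate 1, the VEC library at 5.68 FPKM, its difference was 2.02 (adjusted p = 0.0491 in limma, in a range up to 0.646 over its alternatives). Listed at 0 in all 6 libraries were MYO3A and MYO3B, the class III motors of sensory cells, and the skeletal and cardiac heavy chains MYH1, MYH2, MYH4, MYH6, MYH7, MYH8 and MYH13, with MYH14 of non-muscle myosin IIC.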
